A study of Homo sapiens with 3 samples.

Results

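DNA replication and S phase genes were examined in Huh7 cells, a line established from a human hepatocellular carcinoma, after exposure to chlorogenic acid (CA), a polyphenol of coffee and other plants. The set comprised 52 genes of origin licensing, helicase activation, DNA synthesis, nucleotide supply, chromatin assembly and homologous repair, taken from 19740 named genes on the array. They were chosen by what their products do and not by a threshold on the measured values, and every one of the 52 had a probe. The groups were untreated cells, cells given CA 50 μM for 24 h and cells given CA 100 μM for 24 h. CA was dissolved in dimethyl sulfoxide. The study's methods describe its untreated control as given this solvent, while the label of the control array names no treatment. Each group was measured on 1 single-colour Agilent whole genome array. With 1 array per group there was no replicate error between samples, so no test was run, no p-value is given, and each difference below describes these 3 arrays.

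Before a cell copies its DNA, the origin recognition complex, CDC6 and CDT1 load the ring of MCM2 to MCM7 onto chromatin, a step called licensing, and geminin (GMNN) holds CDT1 back once S phase has begun. The kinase CDC7 with its partner DBF4, MCM10, CDC45 and the GINS complex then turn the loaded rings into active helicases, and the polymerases, the sliding clamp PCNA and its loader follow. Many of these genes are known targets of the E2F transcription factors in dividing cells.

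Among the 52 genes, MCM7 has a particular position, because the precursors of miR-106b, miR-93 and miR-25 lie within it, on the same strand. The mature sequences are shown since 2 of these 3 share their seed with members of the miR-17 family encoded elsewhere. They were read from RefSeq on GRCh38.p14, and the capitals mark the seed, bases 2 to 8.
miR-106b-5p, chr7:100094043-100094063, minus strand: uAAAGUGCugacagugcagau
miR-93-5p, chr7:100093815-100093837, minus strand: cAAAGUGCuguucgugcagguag
miR-25-3p, chr7:100093571-100093592, minus strand: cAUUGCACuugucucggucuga
miR-17-5p, chr13:91350618-91350640, plus strand: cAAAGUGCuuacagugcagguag
miR-20a-5p, chr13:91351072-91351094, plus strand: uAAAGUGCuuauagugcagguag
miR-106a-5p, chrX:134170244-134170266, minus strand: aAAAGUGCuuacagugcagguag
The seed AAAGUGC was common to 5 of these 6 sequences, and miR-25-3p carried a different one. Levels of mature miRNAs were not analysed here, so the array speaks only to the host transcript.

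The promoters of the set shared letters that the choice of genes did not use. RefSeq held a promoter, from 250 bases before to 50 bases after the transcription start, for 46 of the 52 genes, leaving out MCM4, MCM5, GINS4, POLD3, RPA2 and RPA3. The letters TTCCCGC, or in their place the variants TTGGCGC, otherwise TTGCCGC, otherwise TTCGCGC, all of which resemble the site bound by E2F factors, were present on either strand in 33 of these 46 promoters (71.7%), against 13.1% of all 27305 promoters in the table. The letters CCAAT were present in 54.3% against 35.7%, and CACGTG, the core of an E-box, in 15.2% against 7.43%. TTTGAA, which resembles the element of genes of G2 and mitosis, was present in 6.52% against 15.4%. The promoters of the set were also richer in G and C, with a median of 64.5% against 58.3%. The following stretches of 30 bases are printed as examples on GRCh38.p14, each in the direction of its gene, with the matched letters or their complement in capitals.
ORC1, chr1:52404424-52404453, minus strand: cacgccgattgGCGCGAAgttttcttttct
POLE, chr12:132687343-132687372, minus strand: ctgggtgggagcGCGCCAAatttctcccct
RFC3, chr13:33818083-33818112, plus strand: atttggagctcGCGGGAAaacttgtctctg
MCM8, chr20:5950622-5950651, plus strand: ctccgccccgcccctctcgtcTTGCCGCtt
CDT1, chr16:88803755-88803784, plus strand: cgggaaatttgGCGGGAAccgcgcccgcct
PCNA, chr20:5126663-5126692, minus strand: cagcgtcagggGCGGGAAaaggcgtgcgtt
A match describes letters only and is not a measured binding site. ORC1, POLE, RFC3 and MCM8 are shown because they were higher with CA, as described next, and CDT1 and PCNA because they moved little.

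Signal on each array was divided by that array's 75th percentile over gene spots, and the quotient is called relative signal here. Log2 ratios are differences between the log2 relative signals of a pair of arrays. The 75th percentile was 1059 signal units for untreated cells, 1207 for CA 50 μM and 1249 for CA 100 μM, and 70.4% to 71.1% of gene spots were well above background by the scanner software's flag. All 52 genes were well above background on all 3 arrays, by 61 of their 62 probes. Of 13 hepatocyte markers, 11 to 12 were well above background on each array. Their summed relative signal over 12 markers was 454, 407 and 381 from untreated to the higher dose. Of the markers of leukocytes, endothelial cells and fibroblasts, 4 of 4, 3 of 4 and 3 to 4 of 5 were above background as well, with summed relative signals of 0.545 to 0.592, 0.754 to 0.904 and 0.515 to 0.579. On the CA 100 μM array 2283 of 43118 gene spots lay in areas where probes that were dim on the other arrays were bright. The spots of MCM6 and LIG1, the brighter spot of RPA2, and 1 to 2 of the 10 spots of PCNA, CHAF1B and BRCA1 lay in such areas. Without those spots the count of genes at least 1.2-fold higher at CA 100 μM was also 7.

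The only error available came from probes printed 10 times on each array. Over 814 such probes the SD of the log2 ratio between spots was 0.065 for CA 50 μM against untreated, and over 810 probes it was 0.064 for CA 100 μM. It ranged from 0.13 in the dimmest of 4 signal classes to 0.050 in the brightest. It holds no more than the noise of printing and scanning, and not the spread between cultures, RNA extractions and labellings.

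Compared with the untreated group, CA 50 μM left the centre of the set almost where it was. The 52 genes had a median log2 ratio of -0.05, against -0.04 over all 14700 genes measured in that comparison, and 23 genes lay above 0 and 29 below. The median became 0.019 after quantile normalization, against -0.035 over all genes, and 0.037 after cyclic loess, against -0.029. A ratio of at least 1.2-fold higher was reached by 11 genes (21.2%), ORC1, MCM2, MCM4, MCM5, MCM10, DBF4, POLA2, POLE, RFC3, RRM2 and MCM8, against 16.4% of all genes. NASP and RPA3 were at least 1.2-fold lower, which is 3.85% of the set against 16.1% of all genes. The split of 11 higher and 2 lower became 11 and 0 after quantile normalization and 12 and 0 after cyclic loess. After normexp it became 8 and 1, against 10.3% and 14.2% of all genes. At 1.5-fold there were 3 genes higher, RRM2, MCM10 and POLE, against 4.15% of all genes, and 0 lower, against 2.17%. No gene of the set reached 2-fold in either direction, a size reached by 0.463% of all genes upward and 0.517% downward. Since whole cultures were measured, a different share of cells in S phase and a different amount of RNA per cell cannot be told apart.

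At CA 100 μM fewer genes stood away from untreated. The median log2 ratio was 0.01, against -0.03 over 14640 genes, with 27 genes above 0 and 25 below. A ratio of at least 1.2-fold higher was reached by 7 genes (13.5%), MCM5, MCM10, DBF4, POLE, POLE2, RFC3 and RRM2, against 8.22% of all genes. None of the 52 was at least 1.2-fold lower, against 10.4% of all genes. MCM10 and RRM2 passed 1.5-fold higher, a size reached by 1.65% of all genes, and none passed 2-fold, reached by 0.458%. Sizes of 1.5-fold and 2-fold lower, reached by 1.54% and 0.205% of all genes, occurred in none of the 52. MCM5, MCM10, DBF4, POLE, RFC3 and RRM2 passed 1.2-fold higher with either dose. The doses share the untreated array, so a high or low value on that array enters both ratios, and the overlap is a description.

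**Figure D1:**
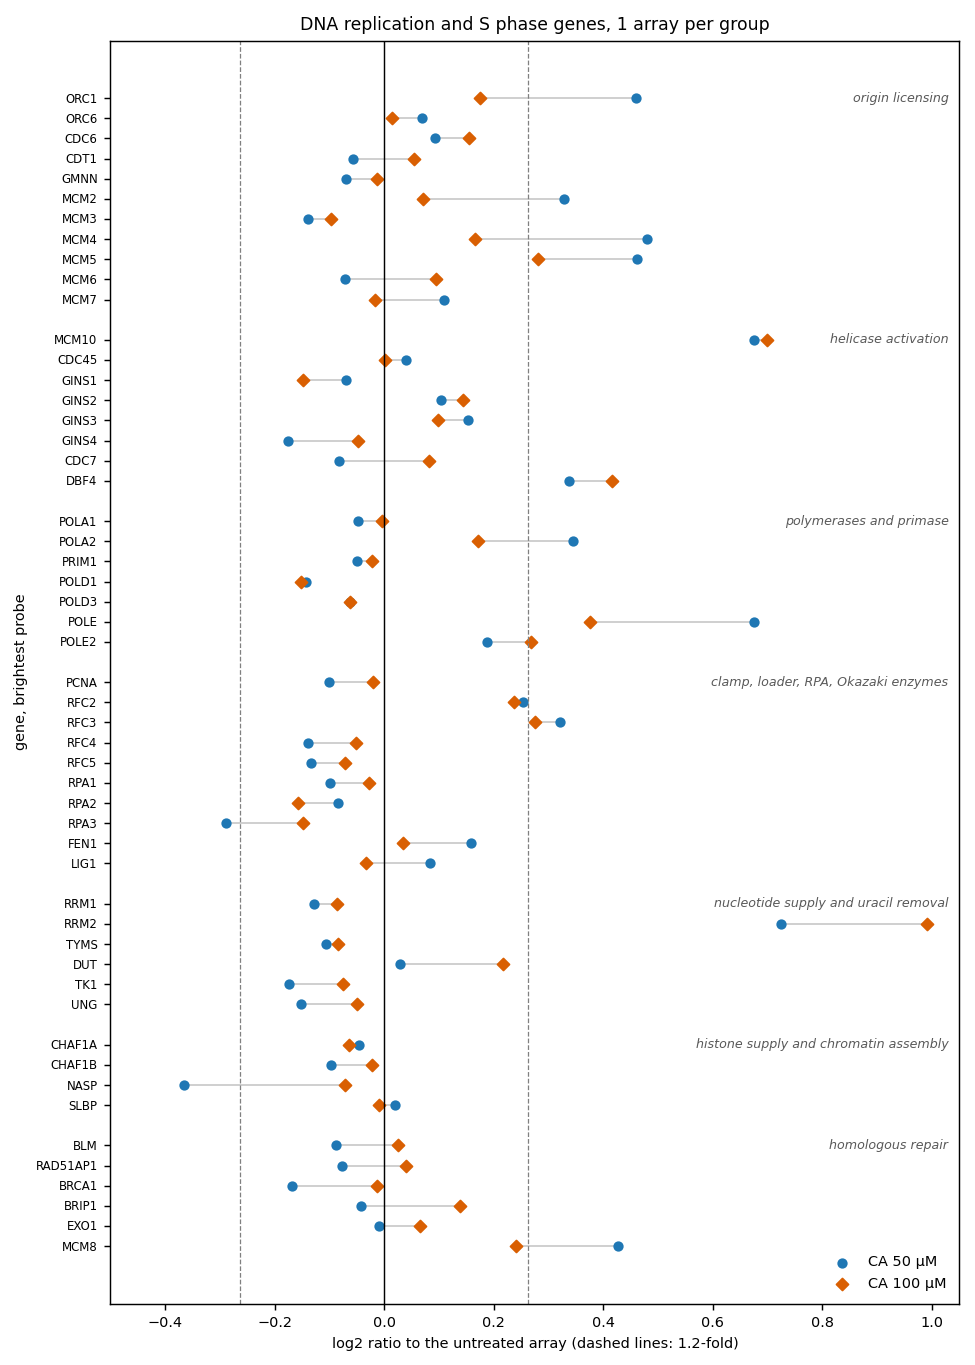
Log2 ratio to untreated (horizontal axis) of each of the 52 genes, grouped by role, at CA 50 μM and CA 100 μM, 1 array per group. RRM2, MCM10 and POLE lie farthest to the right, at up to 0.99, and NASP farthest to the left at CA 50 μM, at -0.37.

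Of the 11 genes of origin licensing, the largest role group, 4 were past 1.2-fold higher at CA 50 μM (36.4%, against 16.4% of all genes), with a median log2 ratio of 0.09. With the higher dose 1 was (9.09%, against 8.22%), with a median of 0.07. ORC1, the largest subunit of the origin recognition complex, had a relative signal of 0.418 in untreated cells, 0.576 at CA 50 μM and 0.472 at CA 100 μM. Its log2 ratios were 0.46 and 0.17, so the lower dose held the highest value. ORC6, another subunit, whose probe was printed 10 times, had relative signals of 1.42, 1.49 and 1.44 in the same order. Its log2 ratios of 0.07 and 0.01 had spot SDs of 0.048 and 0.056. CDC6, a dim member of the set, had relative signals of 0.0829, 0.0884 and 0.0923, and its log2 ratios of 0.09 and 0.15 stood beside an SD of 0.13 for probes this dim. CDT1, the loading factor for the MCM ring, had relative signals of 4.68, 4.50 and 4.87. Its inhibitor GMNN had relative signals of 14.7, 14.0 and 14.6. Neither gene was 1.2-fold from untreated at either dose.

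The 6 subunits of the replicative helicase ring did not move together at CA 50 μM. MCM2 had a relative signal of 4.58 in untreated cells, 5.75 at CA 50 μM and 4.81 at CA 100 μM. MCM4 had relative signals of 4.08, 5.68 and 4.57, and MCM5 1.67, 2.30 and 2.02. In these 3 subunits the CA 50 μM array was highest and the untreated array lowest, with log2 ratios at CA 50 μM of 0.33 for MCM2, 0.48 for MCM4 and 0.46 for MCM5. At CA 100 μM the log2 ratios were 0.07 for MCM2, 0.17 for MCM4 and 0.28 for MCM5, and MCM5 alone of the 6 passed 1.2-fold, though not after median centring. A dimmer probe of MCM5 gave log2 ratios of 0.72 and 0.30 with the same order of arrays.

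MCM3, MCM6 and MCM7, the other subunits of the ring, stayed within 1.2-fold by their brighter or single probe at both doses. MCM3 had relative signals of 14.1, 12.8 and 13.2, lowest at CA 50 μM. MCM6 had relative signals of 12.3, 11.7 and 13.1, with its CA 100 μM spot in a disturbed area, so its log2 ratio of 0.09 at that dose has no value without that area. For MCM6 the log2 ratio of -0.07 at CA 50 μM turned to 0.05 after cyclic loess. Over all 6 subunits the median log2 ratios were 0.22 for the lower and 0.08 for the higher dose.

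The MCM7 probes gave different pictures. The brighter probe had a relative signal of 14.7 in untreated cells, 15.8 at CA 50 μM and 14.5 at CA 100 μM, with log2 ratios of 0.11 and -0.02. The second probe, designed against another RefSeq transcript record of the gene, had relative signals of 0.240, 0.386 and 0.373. Its log2 ratios were 0.68 and 0.64, with both treated arrays above the untreated array. The log2 ratio of the gene at CA 100 μM ranged from -0.04 after median centring to 0.31 when both probes were averaged. Which of these probes follows the transcripts that carry miR-106b and miR-93 was not tested.

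**Figure D2:**
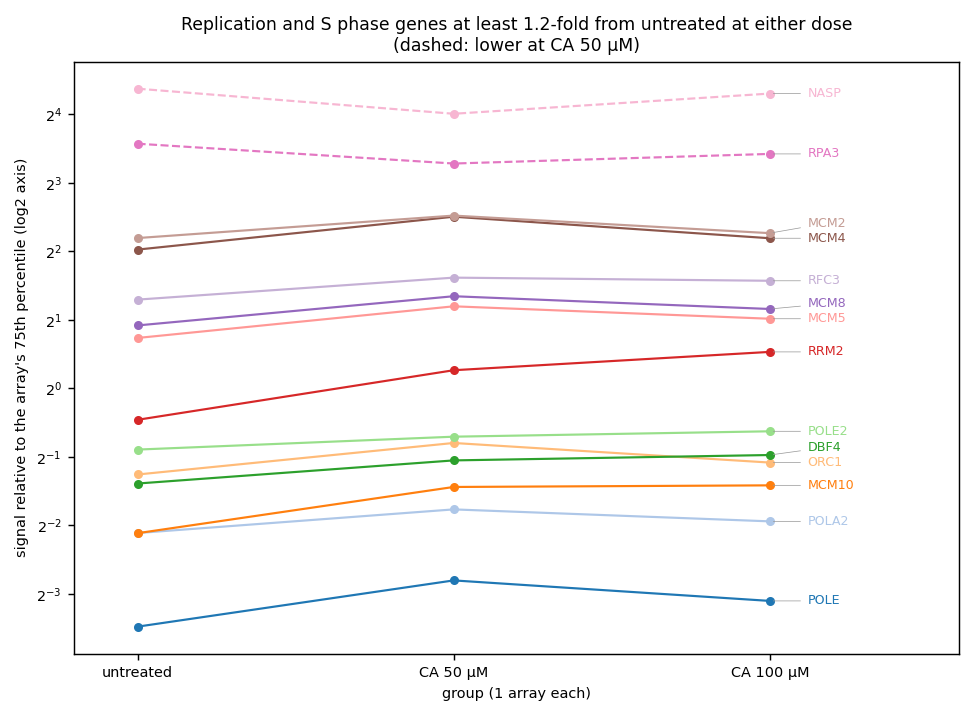
Relative signal on a log2 axis for each gene that was at least 1.2-fold from untreated at either dose, with 1 point per array and dashed lines for the genes that were lower at CA 50 μM. RRM2 went from 0.728 to 1.202 and 1.447, whereas ORC1, MCM2 and MCM4 were highest at CA 50 μM.

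Of the 8 genes of helicase activation, MCM10 and DBF4 passed 1.2-fold higher with either dose. MCM10, which joins the helicase as it becomes active, had a relative signal of 0.231 in untreated cells, 0.369 at CA 50 μM and 0.375 at CA 100 μM. It was measured by 1 probe with 1 spot on each array. Both treated arrays lay above the untreated array by nearly the same log2 ratio, 0.67 and 0.70, beside spot SDs of 0.065 and 0.063 for probes of this brightness. DBF4, the regulatory subunit of the CDC7 kinase, had relative signals of 0.382, 0.483 and 0.510 by its brighter probe, with log2 ratios of 0.34 and 0.42. Its second probe went the other way, with relative signals of 0.0818, 0.0747 and 0.0762 and log2 ratios of -0.13 and -0.10, no larger than the SD of 0.13 for probes this dim. With both probes averaged DBF4 stood at 0.10 and 0.16. The kinase CDC7 itself had relative signals of 3.77, 3.56 and 3.99.

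CDC45 and the GINS subunits, which complete the helicase, stayed within 1.2-fold. CDC45 had relative signals of 5.59, 5.74 and 5.59. GINS2, printed 10 times, had relative signals of 2.45, 2.63 and 2.71, and its log2 ratios of 0.10 and 0.14 had spot SDs of 0.082 and 0.051. GINS1 was lowest at CA 100 μM, with relative signals of 10.4, 9.86 and 9.34, GINS3 highest at CA 50 μM, with 1.46, 1.62 and 1.56, and GINS4 lowest at CA 50 μM, with 1.89, 1.67 and 1.82. The 4 subunits of 1 complex thus had no common order of arrays.

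The polymerases differed by subunit. POLE, the catalytic subunit of the leading strand polymerase epsilon, had a relative signal of 0.0897 in untreated cells, 0.143 at CA 50 μM and 0.116 at CA 100 μM, with log2 ratios of 0.68 and 0.38 beside an SD of 0.13. After normexp the ratio at CA 50 μM was 0.32. Its CA 100 μM spot carried a background flag, and without such spots it had no value at that dose. A second probe of POLE was clear of background on the CA 100 μM array alone. Its relative signals were 0.0112, 0.0116 and 0.0136, so close to background that no ratio is given for it. POLE2, the second subunit of the same polymerase, had relative signals of 0.538, 0.613 and 0.648, and its log2 ratios were 0.19 and 0.27, the latter under 1.2-fold in 5 of 11 alternatives. POLA2, the accessory subunit of polymerase alpha, which begins each new strand with primase, had relative signals of 0.231, 0.294 and 0.260 and log2 ratios of 0.35 and 0.17.

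The other polymerase genes stayed within 1.2-fold. POLA1, the catalytic subunit of polymerase alpha, had relative signals of 1.31, 1.27 and 1.31. PRIM1, the catalytic subunit of primase, was printed 10 times and had relative signals of 2.02, 1.95 and 1.99, with log2 ratios of -0.05 and -0.02 and spot SDs of 0.033 and 0.079. For the lagging strand polymerase delta, POLD1 had relative signals of 1.36, 1.23 and 1.22, and POLD3 3.21, 3.08 and 3.08. Both of these delta subunits were highest in untreated cells. Over all genes untreated was highest in 31.0% with CA 50 μM lowest and in 14.4% with CA 100 μM lowest. For POLD3 the log2 ratio was -0.06 at either dose, beside an SD of 0.050.

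PCNA, the sliding clamp that tethers the polymerases to DNA, was measured by a probe printed 10 times and by a probe with a single spot. The first had relative signals of 18.8, 17.5 and 18.5, with log2 ratios of -0.10 and -0.02 and spot SDs of 0.038 and 0.059. The single spot had relative signals of 12.9, 11.9 and 12.2. Both probes were highest in untreated cells and lowest at CA 50 μM, and after cyclic loess the first of them gave 0.04 at CA 50 μM.

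Of the genes of the clamp loader, which opens PCNA and closes it around DNA, RFC3 alone passed 1.2-fold. RFC3 had a relative signal of 2.46 in untreated cells, 3.07 at CA 50 μM and 2.97 at CA 100 μM by its brighter probe, with log2 ratios of 0.32 and 0.28. Its second probe, with relative signals of 0.782, 0.840 and 0.857, gave log2 ratios of 0.10 and 0.13, in the same direction and under 1.2-fold. RFC2 came close, with relative signals of 1.22, 1.45 and 1.44 and log2 ratios of 0.25 and 0.24. RFC4 had relative signals of 3.92, 3.56 and 3.78 and RFC5 1.82, 1.66 and 1.73, both lowest at CA 50 μM. The 4 loader subunits measured in the set therefore lay on both sides of untreated.

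RPA1, RPA2 and RPA3 form the trimer that coats single stranded DNA. RPA3 had a relative signal of 11.9 in untreated cells, 9.74 at CA 50 μM and 10.7 at CA 100 μM, with log2 ratios of -0.29 and -0.15. It was at least 1.2-fold lower at CA 50 μM by the 75th percentile scaling but not after quantile normalization, cyclic loess or in the deposited log2 table. RPA1 had relative signals of 8.20, 7.66 and 8.04 by its brighter probe, with log2 ratios of -0.10 and -0.03. Its dim second probe had relative signals of 0.0887, 0.0804 and 0.0928, with log2 ratios of -0.14 and 0.07 beside an SD of 0.13. RPA2 had relative signals of 3.28, 3.09 and 2.94 by its brighter probe, with log2 ratios of -0.08 and -0.16, and its second probe went the other way, at 0.10 and 0.06. FEN1 and LIG1, which trim and seal Okazaki fragments, had log2 ratios of 0.16 and 0.08 at CA 50 μM and 0.03 and -0.03 at CA 100 μM.

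RRM2, measured by 1 probe with 1 spot on each array, had the largest ratios of the set at both doses. It encodes the small, S phase regulated subunit of ribonucleotide reductase, the enzyme that makes deoxyribonucleotides. Its relative signal was 0.728 in untreated cells, 1.202 at CA 50 μM and 1.447 at CA 100 μM, in the order of dose. The log2 ratios were 0.72 and 0.99, that is 1.65-fold and 1.99-fold, beside spot SDs of 0.065 and 0.056 for probes of this brightness. The large subunit RRM1, in contrast, had relative signals of 7.73, 7.07 and 7.28, with log2 ratios of -0.13 and -0.09.

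The remaining genes of nucleotide supply stayed within 1.2-fold, and most were lowest at CA 50 μM and highest in untreated cells, an order held by 31.0% of all genes. TYMS, thymidylate synthase, had relative signals of 24.95, 23.2 and 23.5. TK1, the thymidine kinase of S phase, had relative signals of 5.84, 5.18 and 5.54, and UNG, which removes uracil from DNA, 16.5, 14.9 and 16.0. DUT, which keeps uracil nucleotides low, was the exception, with relative signals of 2.63, 2.68 and 3.05 and log2 ratios of 0.03 and 0.22 by its brighter probe. Its second probe had relative signals of 0.726, 0.717 and 0.778, lowest at CA 50 μM, with log2 ratios of -0.02 and 0.10. The 6 genes of this group had medians of -0.12 with the lower and -0.06 with the higher dose.

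NASP, a chaperone of histones H3 and H4, had the lowest ratio of the set. Its relative signal was 20.8 in untreated cells, 16.1 at CA 50 μM and 19.8 at CA 100 μM. Thus the CA 50 μM array was low and the other arrays close, with log2 ratios of -0.37, or 0.776-fold, and -0.07. It was no longer 1.2-fold lower at CA 50 μM after quantile normalization, cyclic loess, normexp or in the deposited table, where the ratio nearest to 0 was -0.23. CHAF1A and CHAF1B are subunits of the assembly factor that places histones on new DNA. CHAF1B, printed 10 times, had relative signals of 1.55, 1.45 and 1.52, with log2 ratios of -0.10 and -0.02 and spot SDs of 0.060 and 0.048. CHAF1A had relative signals of 4.71, 4.57 and 4.51 by its brighter probe, with log2 ratios of -0.05 and -0.07, whereas its dim second probe gave 0.68 and 0.33. SLBP, which binds the stem loop of histone messages, had relative signals of 10.7, 10.9 and 10.7.

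In the homologous repair group, MCM8 stood apart from the other genes. MCM8, a relative of the ring subunits that acts in recombination, had a relative signal of 1.89 in untreated cells, 2.54 at CA 50 μM and 2.23 at CA 100 μM, with log2 ratios of 0.43 and 0.24. BRCA1, printed 10 times, had relative signals of 1.94, 1.73 and 1.93, with log2 ratios of -0.17 and -0.01 and spot SDs of 0.079 and 0.11. EXO1, an exonuclease also printed 10 times, had relative signals of 1.76, 1.75 and 1.84, with log2 ratios of -0.0087 and 0.06. The helicase BLM had relative signals of 5.23, 4.92 and 5.32, RAD51AP1 1.70, 1.61 and 1.75, and the BRCA1 partner helicase BRIP1 0.280, 0.272 and 0.308. In 5 of the 6 genes the CA 50 μM array was lowest, and MCM8 was the exception. For EXO1 and BRIP1, at -0.0087 and -0.04, the fall at CA 50 μM was smaller than the SDs of 0.062 and 0.065. Over all genes CA 50 μM was lowest in 31.0% with untreated highest and in 10.8% with CA 100 μM highest.

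Between the doses, CA 100 μM against CA 50 μM, the median log2 ratio of the set was 0.04, against 0.00201 over 14666 genes. RRM2 and NASP were at least 1.2-fold higher at CA 100 μM (3.85%), against 6.44% of all genes, with log2 ratios of 0.27 and 0.29. MCM4, POLE and ORC1 were at least 1.2-fold lower (5.77%), against 13.0% of all genes, at -0.31, -0.30 and -0.29. None of the 52 differed by 1.5-fold between the doses, against 1.4% of all genes higher and 1.54% lower, or by 2-fold, against 0.586% and 0.0886%. The 2 higher and 3 lower became 1 and 3 after cyclic loess. Across the 3 arrays, the commonest order was untreated highest and CA 50 μM lowest, in 18 of the 52 genes (34.6%) against 31.0% of 14546 genes, followed by CA 50 μM highest and untreated lowest, in 13 (25%) against 22.7%. A rising order from untreated through CA 50 μM to CA 100 μM occurred in 7 of the 52 genes (13.5%), against 8.68% of all genes. Among the genes past 1.2-fold these were RRM2, MCM10, DBF4 and POLE2. For MCM10 the doses differed by 0.02 on the log2 scale, less than the spot SD. For DBF4 and POLE2 they differed by 0.08 each, beside an SD of 0.058, and the second probe of DBF4 did not have this order.

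The genes that were higher lay mostly among the dimmer members of the set. All genes were divided into 5 equal classes by untreated signal, and the dimmer 3 classes, below a relative signal of 0.992, held 9 of the 52 genes. Of these 9, 6 were at least 1.2-fold higher at CA 50 μM (66.7%), ORC1, MCM10, DBF4, POLA2, POLE and RRM2, against 22.7% of all genes in the same classes. Among the 43 genes in the brighter 2 classes, 5 were (11.6%), MCM2, MCM4, MCM5, RFC3 and MCM8, against 6.80%. At CA 100 μM the numbers were 5 of 9 (55.6%) against 12.6%, and 2 of 43 (4.65%) against 1.66%. At that dose 0 of the 9 were at least 1.2-fold lower, against 13.4%, and 0 of the 43, against 5.84%. The median log2 ratio of all genes also moved with signal at CA 50 μM, from 0.04 in the dimmest class to -0.13 in the brightest. Within the brightest class the set had a median of -0.08, against -0.13, and within the next class 0.03, against -0.05. In the dimmer classes its medians were 0.40 over 4 genes, against -0.01, and 0.35 over 5 genes, against 0.03. Both NASP and RPA3, the genes that were lower, belonged to the brightest class, in which 17.7% of all genes were at least 1.2-fold lower. The part of this shift with signal in the ratios of single genes was not tested. The untreated array set the class of a gene and is also the base of its ratios, so a low or high value on that array enters both.

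**Figure D3:**
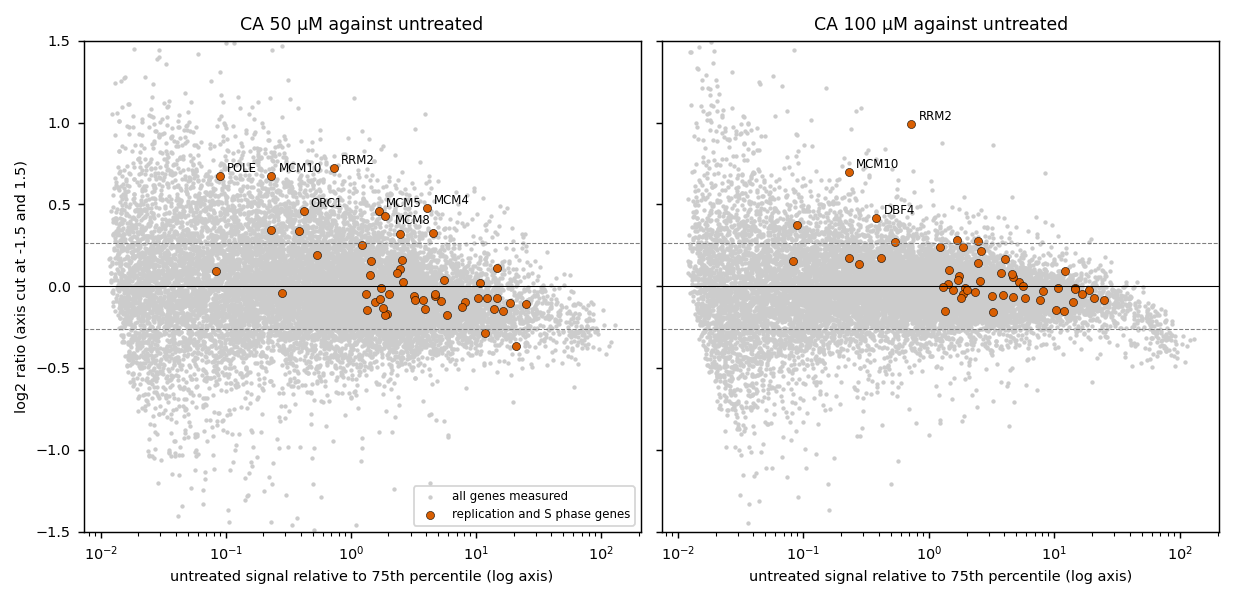
Log2 ratio to untreated (vertical axis) against untreated relative signal (horizontal log axis) for all genes measured (grey) and for the 52 genes (orange) at each dose, with dashed lines at 1.2-fold and the vertical axis cut at -1.5 and 1.5. Of the 9 genes with an untreated relative signal under 0.992, 6 lie above the upper dashed line at CA 50 μM, and the cloud of all genes is wider at low signal.

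Where a gene had more than 1 probe, the probes often differed in size. Of 9 genes with a pair of probes above background, the dimmer probe was at least 1.2-fold higher than the brighter one in 2 (22.2%) at CA 50 μM, MCM7 and CHAF1A, against 33.4% of 3266 genes with such pairs. It was at least 1.2-fold lower in 1 (11.1%), DBF4, against 10.1%. The median size of the difference was 0.22 on the log2 scale, against 0.23 over all pairs. The disagreement between probes in this set was thus near that of the array as a whole.

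**Figure D4:**
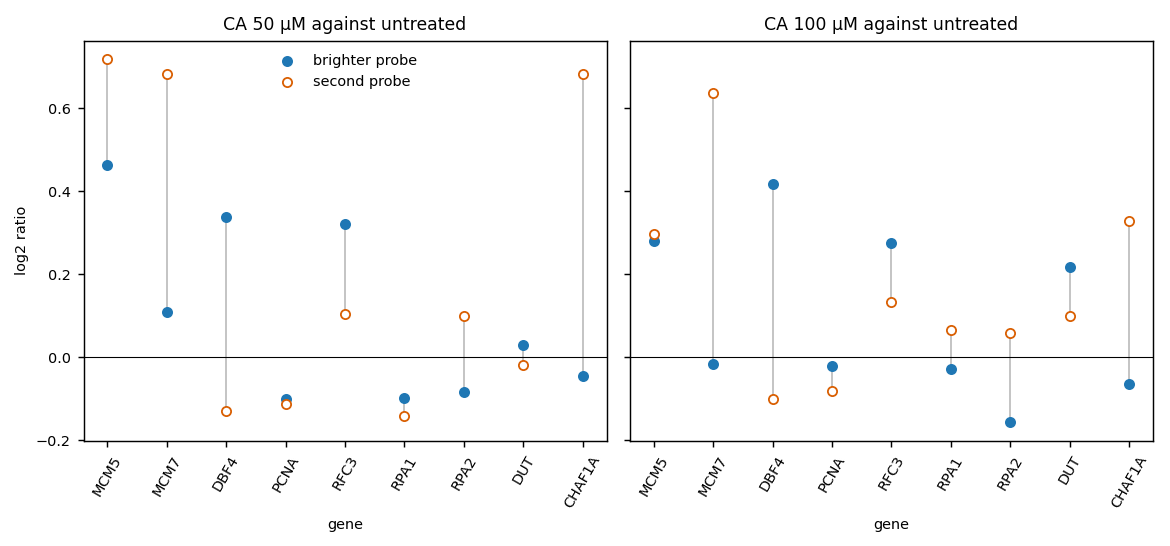
Log2 ratio to untreated (vertical axis) for the 9 genes with a pair of probes above background (horizontal axis), by the brighter probe (filled) and the second, dimmer probe (open), at each dose. The points of MCM7, at 0.11 and 0.68, and of CHAF1A, at -0.05 and 0.68, lie farthest apart at CA 50 μM, and for DBF4, at 0.34 and -0.13, the second probe is the lower one.

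The E2F-like letters were present both in genes that were higher and in the others. They were found in 6 of the 9 promoters of genes that passed 1.2-fold higher at CA 50 μM (66.7%) and in 27 of the other 37 promoters (73.0%). Of the genes with the largest ratios, POLE had a match and RRM2 and MCM10 had none in this window.

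Other genes of the same pathway, 57 in all, were listed by role and not by ratio. At CA 50 μM 8 of them were at least 1.2-fold higher (14.0%, against 16.4% of all genes) and 3 lower (5.26%, against 16.1%), with a median log2 ratio of 0.0037. With the higher dose 5 were higher (8.77%, against 8.22%) and 0 lower (against 10.4%), with a median of 0.01. The share that was higher was thus near that of all genes, and the share that was lower was smaller. POLD2, a further subunit of polymerase delta, had the largest ratio at CA 50 μM, 0.89, and 0.47 at CA 100 μM, unlike POLD1 and POLD3. ASF1B, a histone chaperone, was at 0.50 and CLSPN, a mediator of the replication checkpoint, at 0.49 at CA 50 μM. The lowest were MCMBP, which binds the MCM ring, at -0.38, RBBP8, a nuclease factor of repair, at -0.29 and MCM9, the partner of MCM8, at -0.28. At CA 100 μM BRCA2 was highest at 0.53, followed by POLD2 and by CLSPN at 0.46, and XRCC3, POLD4 and MCM9 were lowest, at -0.25, -0.25 and -0.24. BRCA2 and CLSPN were dim, with untreated relative signals of 0.0555 and 0.0518, and probes this dim carried an SD of 0.13. As reference, GAPDH had log2 ratios of 0.21 and 0.03 and ACTB -0.27 and -0.39 at the lower and the higher dose.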

How the data were processed

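Total RNA of 3 groups of Huh7 cells was labelled with Cy3 by the authors and hybridised to Agilent arrays. The deposited scanner files hold spot intensity values, background-corrected by Agilent Feature Extraction 11.0.1.1 according to the submitters' processing notes. A deposited table of log2 values, whose normalization is not given in the sources used here, served as an alternative. It correlated with log2 scanner signal within each array at r of 0.99996 to 0.99998 over 22114 probes.

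Here log2 processed signal minus each array's 75th percentile was used. Spots with outlier flags were left out (429 for untreated cells, 569 for CA 50 μM and 596 for CA 100 μM), and the 10 spots of a probe were averaged. A gene took its brightest probe well above background on both arrays, in at least 50% of spots. Probes were named through the RefSeq accession of their design, 25771 of 34127 (75.5%). Gene coordinates are not given, since the array design and the reference table differ in build. The number of arrays, 1 per group, limits the precision, and sizes of 1.2-, 1.5- and 2-fold are descriptive. The calculation was tested on simulated data.

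The 52 genes and all lists were chosen with earlier results of these data known. Any of the 52 could be named. Described in full were MCM2 to MCM7, the 5 largest ratios each way at each dose, genes past 1.2-fold the same way at both doses, those with probes printed 10 times, not above background in a group, or with probes of opposite sign. Of the partners, the 3 largest ratios each way were named, with GAPDH and ACTB. There were 11 alternatives for scaling, background (normexp with an offset of 50, on median signals), probe choice and array surface. Python 3.11.15, numpy 2.4.6, pandas 2.3.3, R 4.3.3 and limma 3.58.1 were used.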

Additional observations from a re-analysis of the deposited data

Results flagged for a closer look

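In 3 genes the doses lay on opposite sides of untreated, each by more than the within-array SD between spots. The difference between the doses was not tested. The share of all genes past this bar is not given, so the count is a description of these genes and not a result about the set. For CDT1 the SD was 0.050 at either dose, close to the size of its ratios. All 3 had CA 100 μM highest and CA 50 μM lowest. That order occurred in 7 of the 52 genes (13.5%), against 10.8% of all genes. The reverse order occurred in 3 of the 52 (5.77%), against 12.4%. CDT1 had a log2 ratio of -0.06 with the lower dose and of 0.05 with the higher, a difference of 0.11, and its ratio at CA 50 μM turned to 0.01 after cyclic loess and 0.04 after normexp. MCM6 had -0.07 and 0.09, a difference of 0.17, with its CA 100 μM spot in a disturbed area, and its ratio at CA 50 μM was 0.0066 after quantile normalization. CDC7 had -0.08 and 0.08, a difference of 0.16, and kept both signs under the 11 alternatives.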

How the results depend on the processing

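No paired analysis was possible because each group had 1 array. Of 699 recomputed values, 601 moved by less than the within-array spread or stayed within 1.5 times the count, 98 moved more, and 0 of the called ratios changed sign. The median at CA 50 μM was -0.05, and became 0.019 after quantile normalization, 0.037 after cyclic loess and 0.022 in the deposited log2 table. Over all genes the medians in these settings were -0.035, -0.029 and -0.034. The count of genes at least 1.2-fold lower at CA 50 μM was 2, and became 0 in each of these 3 settings and 1 after normexp. At CA 100 μM the median was 0.01, and 0.078 after cyclic loess. The 7 genes higher at CA 100 μM became 4 after median centring. The 2 genes higher at CA 100 μM than at CA 50 μM became 1 after quantile normalization, cyclic loess, normexp and in the deposited log2 table. The cause was not tested. ORC1, MCM2, MCM4, MCM5, MCM10, POLE, RRM2 and MCM8 at CA 50 μM and MCM10 and RRM2 at CA 100 μM were past 1.2-fold in all 11 alternatives. Those lost in at least 1 were POLA2, DBF4, RFC3, RPA3 and NASP at CA 50 μM and MCM5, DBF4, RFC3 and POLE2 at CA 100 μM. Among the genes recomputed singly, small ratios that changed sign in at least 1 were those of CDT1, MCM6, GINS1, EXO1, PCNA, RPA2 and CHAF1A at CA 50 μM. At CA 100 μM they were those of ORC6, MCM7, PRIM1, PCNA, RPA2, CHAF1A, CHAF1B, NASP and BRCA1. Limits: 1 array per group gives no spread between cultures, within-array SDs cover printing and scanning only, dim probes such as those of CDC6 and POLE carry an SD of 0.13, and protein, S phase fraction and mature miRNAs were not analysed here.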

Other observations

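Genes that govern entry into S phase and genes of G2 and mitosis, listed by role, were read beside the replication genes. Of 29 measured genes of S phase entry, 5 were at least 1.2-fold higher (17.2%, against 16.4% of all genes) and 2 lower (6.90%, against 16.1%) at CA 50 μM. With the higher dose 5 were higher (17.2%, against 8.22%) and 1 lower (3.45%, against 10.4%). The medians were -0.0058 and 0.06. E2F4, a repressor type E2F, had log2 ratios of 0.92 and 0.46, the CDK inhibitor CDKN1A 0.52 and 0.36, cyclin D1 (CCND1) 0.45 and 0.29 and CDK2 0.41 and 0.34, whereas the E2F partner TFDP2 had -0.45 and -0.32. These genes were chosen after their values were seen. CDKN1A and E2F4 were dim, with untreated relative signals of 0.0342 and 0.119. Probes as dim as that of CDKN1A carried an SD of 0.13.

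Of 39 measured genes of G2 and mitosis, 6 were at least 1.2-fold higher (15.4%, against 16.4% of all genes) and 2 lower (5.13%, against 16.1%) at CA 50 μM. With the higher dose 2 were higher (5.13%, against 8.22%) and 0 lower (against 10.4%), so the shares that were higher lay at or below those of all genes. The medians were 0.01 and 0.03. The mitotic kinase PLK1 had log2 ratios of 0.76 and 0.09, AURKB 0.50 and 0.38, and the proliferation marker MKI67 0.42 and 0.30. These 3 were also picked for their values, all upward.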
